A study of Mus musculus with 4 samples.

Results

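Interferon-stimulated effector genes encode the proteins with which a cell blocks, senses or destroys an invading virus. Members were taken by gene symbol from a list of 50, and 49 of them were among the 14323 genes of the deposited table (Ifi44l was not analysed here). Of these, 44 had a mean of at least 1 normalized count over the libraries and entered the test across 11370 genes. RNA-seq had been run on colonies raised from 2 populations of C57BL/6 mouse blood progenitors, the short-term haematopoietic stem cell (ST-HSC) and the MPP2 cell, a multipotent progenitor with a lean toward platelet and red cell fates. Each culture began with 100 cells in 1% methylcellulose and lasted 5 to 7 days. It held SCF (25 ng/ml) plus IL-6, IL-3 and GM-CSF (10 ng/ml each). One pair of cultures held 0.05 µM 4-hydroxytamoxifen (4OHT), given as conditional expression of MLL-ENL, a leukaemia fusion protein, and the other pair held ethanol, given as control.

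Each of the 4 groups had 1 library, so differences between single libraries are given without a p-value. The 4OHT effect common to both cell types was the part of the design that left a test. The labels do not give the promoter or recombinase of the inducible allele or the number of mice. Cells without that allele under 4OHT were not analysed here, so the drug and the fusion cannot be told apart. Recovered reads per library ranged from 12907412 to 14317891, and 1 read was worth 0.0695 to 0.0802 normalized counts, the unit of the levels below. Kit, a receptor of progenitors and mast cells, had 1098 to 1293 reads in every library. Slamf1, a marker used in sorting stem and progenitor cells, had 0 reads in both ST-HSC libraries, which allows up to 3. It had 44 and 31 reads in the MPP2 libraries. RNA came from the colonies, so these counts do not test the identity of the starting cells. The 9 listed neutrophil markers summed to between 17769 and 41807 normalized counts.

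Type I interferons bind a receptor made of IFNAR1 and IFNAR2. The kinases JAK1 and TYK2 then set off a complex that contains IRF9 and binds the interferon-stimulated response element (ISRE) in the promoters of effector genes. Interferon gamma instead acts at gamma-activated sites (GAS). In blood progenitors this programme is known both as antiviral defence and as a signal that can drive resting stem cells into cycle.

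The ISRE core was common in member promoters, and 7 stretches are shown because they carry it upstream of members with large, middling and small 4OHT differences. RefSeq promoters (GRCm38.p6, 250 bases before to 50 after the start) were found for 38 members, 45 promoters in all. Capitals mark the core, which reads GAAA, any 2 bases, GAAA, or on the opposite strand TTTC, any 2 bases, TTTC, and copies may overlap. The stretches lie at chr4:156200855-156200916 (minus strand) for Isg15, chr19:34583353-34583436 (plus) for Ifit3, chr12:26456543-26456592 (minus) for Rsad2, chr5:120777705-120777754 (minus) for Oas3, chr8:71537567-71537622 (minus) for Bst2, chr3:142620584-142620633 (plus) for Gbp2 and chr3:142530263-142530312 (plus) for Gbp7.
Isg15: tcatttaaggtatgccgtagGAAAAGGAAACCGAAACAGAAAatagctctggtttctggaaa
Ifit3: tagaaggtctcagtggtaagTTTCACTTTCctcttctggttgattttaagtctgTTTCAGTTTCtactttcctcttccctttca
Rsad2: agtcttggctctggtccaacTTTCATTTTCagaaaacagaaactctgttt
Oas3: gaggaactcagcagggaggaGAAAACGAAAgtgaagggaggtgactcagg
Bst2: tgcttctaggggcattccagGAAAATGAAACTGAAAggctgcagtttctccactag
Gbp2: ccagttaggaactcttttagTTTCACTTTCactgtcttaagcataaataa
Gbp7: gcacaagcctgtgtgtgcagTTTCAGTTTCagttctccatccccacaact

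The core was present in 21 of the 45 member promoters (46.7%), belonging to 20 of 38 genes. It was in 3.44% of all 32851 RefSeq promoters searched and in 3.09% of the 13668 promoters of genes in the deposited table. At least 2 copies were present in 10 member promoters (22.2%) and in 0.225% of all promoters. The GAS letters TTC, any 3 bases, GAA, which read the same on both strands, were present in 12 member promoters (26.7%) and in 8.30% of all promoters. Some bases can belong to both motifs. A match is a description of the letters, not evidence of binding.

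With 4OHT the antiviral effectors stood higher in both cell types, and by more in ST-HSC colonies. In that pair of libraries 27 of 44 tested members were at least 2-fold higher (2.1% of all tested genes) and 0 were at least 2-fold lower (0.545% of all). Their median log2 difference was 1.61, beside -0.004 over all tested genes, and 43 of 44 were above 0 (49.3% of all tested genes). In MPP2 colonies 17 of 44 were at least 2-fold higher (1.32% of all tested genes) and 0 were at least 2-fold lower (1.7% of all), with a median of 0.73 beside -0.002, and 39 of 44 were above 0 (49.7% of all tested genes). These 39 were above 0 in both cell types (30.4% of all tested genes). All 17 were also among the 27, so 17 members were at least 2-fold higher in both cell types (0.756% of all tested genes). The filter on the mean let 8 tested members through that averaged under 1 in the ethanol libraries, so those had to stand higher with 4OHT on average. Over all 49 listed members, with at least 4 reads in all as the one limit, 30 were at least 2-fold higher in ST-HSC (2.15% of all listed genes) and 18 in MPP2 (1.5% of all listed genes). These counts use log2 values after 0.5 was added, and they describe 1 pair of cultures for each cell type.

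**Figure D1:**
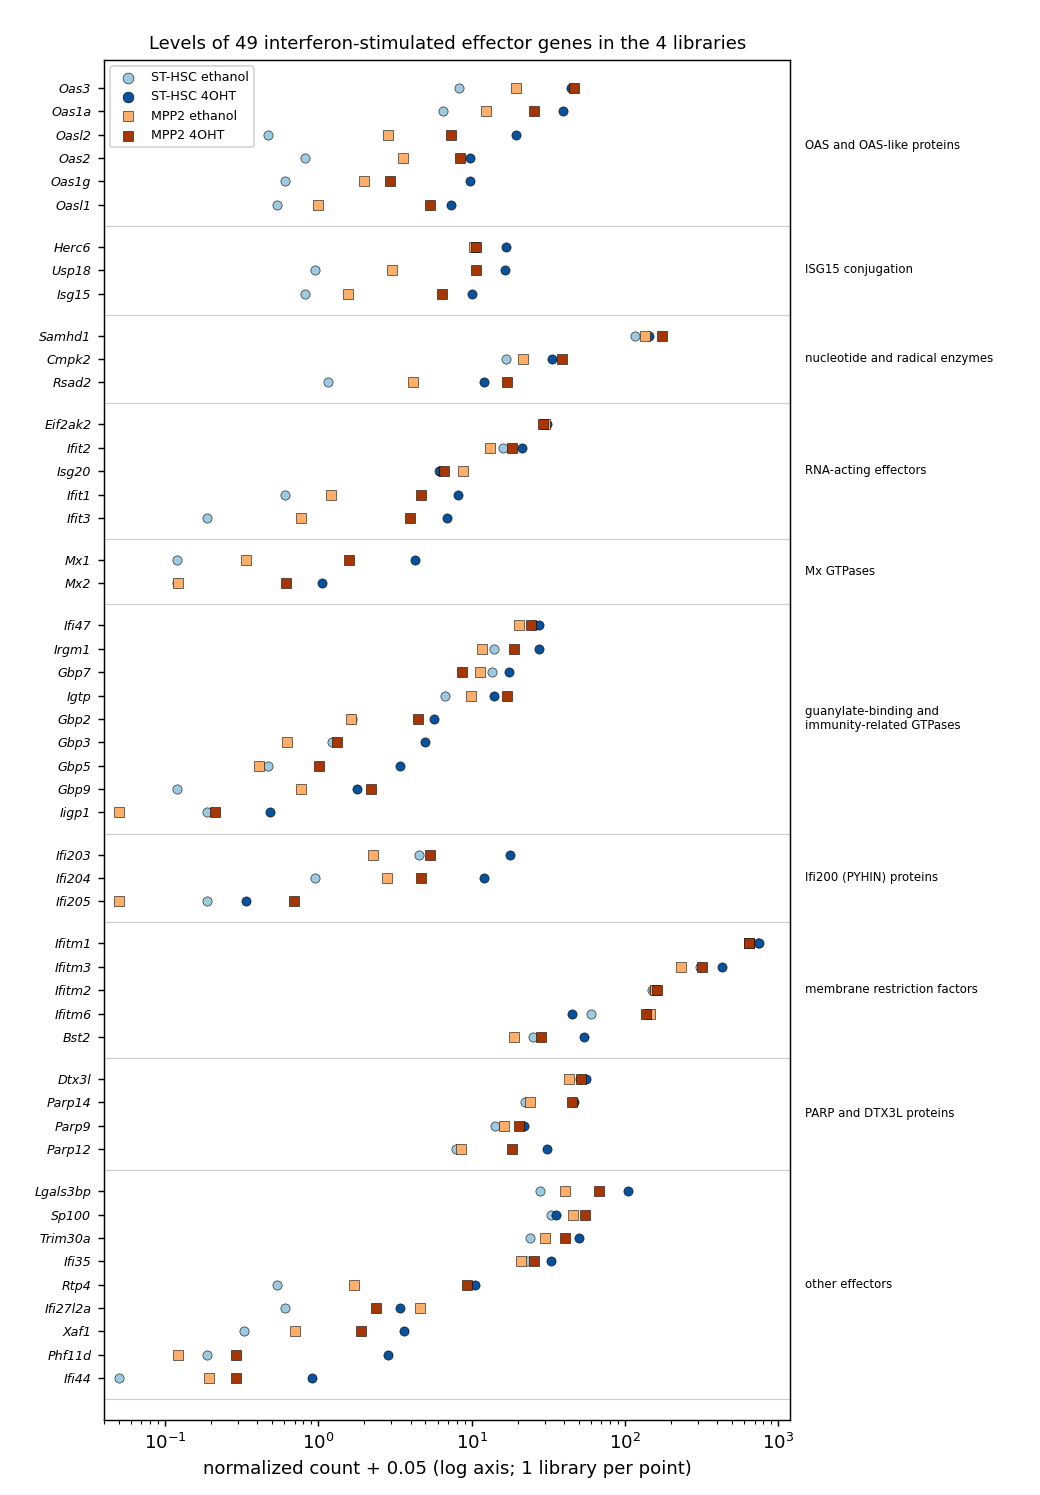
Level of each of the 49 listed members in the 4 libraries, as normalized count plus 0.05 on a log axis, ordered by role and mean level. Among the 44 tested members, ST-HSC colonies with ethanol hold the lowest point for 28 and ST-HSC colonies with 4OHT the highest for 33.

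Limma tested the mean 4OHT difference of both cell types, with cell type as a second term, on 1 residual degree of freedom. That residual is the disagreement between the 2 cell types in their 4OHT difference, not the spread between repeat cultures. Members with unequal differences therefore have larger limma standard errors, such as 0.73 for Oasl2 beside 0.13 for Cmpk2. The other tools below used the same terms. At a Benjamini-Hochberg adjusted p of 0.05, limma called 0 of 44 members higher and 0 lower, against 0.044% and 0.0088% of all tested genes. The lowest adjusted p of a member was 0.0779. At an unadjusted limma p of 0.05, 33 of 44 members were higher, against 7.02% of all tested genes. The call depends on the tool: with a mean-variance trend limma called 27 members higher (2.96% of all genes), edgeR's quasi-likelihood test on recovered reads 28 (2.47% of all) and DESeq2 15 (1.03% of all), and 0 members were called lower by any of them, against 2.3%, 1.86% and 0.361% of all tested genes. The 16 tested members that edgeR did not call higher were Oas1g, Herc6, Samhd1, Ifit2, Eif2ak2, Isg20, Gbp7, Ifi47, Ifitm1, Ifitm2, Ifitm6, Parp9, Dtx3l, Ifi35, Ifi27l2a and Sp100. The 8 tested members that averaged under 1 in the ethanol libraries are all among edgeR's 28. The filter had fixed their mean direction beforehand, so their calls are not independent of it. Since the call depends on the tool, the text calls members higher or lower only between named libraries.

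The OAS enzymes make short oligoadenylates when they meet double-stranded RNA, which switches on RNase L, and the OAS-like proteins are their relatives. All 6 were at least 2-fold higher with 4OHT in ST-HSC colonies (2.1% of all tested genes), with a median log2 difference of 3.01. In MPP2 colonies 5 of 6 were (1.32% of all), with a median of 1.18. Oasl2 had 0.417 normalized counts in ST-HSC with ethanol, 19.4 in ST-HSC with 4OHT, 2.81 in MPP2 with ethanol and 7.30 in MPP2 with 4OHT. Its ratio of 4OHT to ethanol was 46.5 in ST-HSC (95% counting interval 21.1 to 128) and 2.59 in MPP2 (1.76 to 3.88). Counting intervals are exact binomial intervals on the reads and cover counting error alone. In ethanol the MPP2 library was 6.74-fold above the ST-HSC library (2.84 to 19.5), and under 4OHT it was lower (ratio 0.376, 0.293 to 0.479).

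Oas3, the largest OAS enzyme, stood at 8.28, 44.6, 19.4 and 46.6 in the same order of libraries. The 4OHT libraries of both cell types ended at like levels (ratio 1.04, 0.931 to 1.17), although their ethanol libraries differed 2.35-fold. Oasl1, which in mouse cells holds back translation of Irf7, had 0.487, 7.33, 0.938 and 5.29, with 4OHT ratios of 15.1 (7.05 to 38.4) and 5.64 (3.08 to 11.2). Oas1g had 0.556, 9.70, 1.95 and 2.89, a ratio of 17.4 (8.60 to 41.2) in ST-HSC against 1.48 (0.875 to 2.54) in MPP2. Oas1g shares 55.1% of its 31-base words with other genes, nearly all with Oas1a, and Oas1a shares 68.8%, so reads may have been split between this pair. Oas1a (log2 2.52 and 1.03) and Oas2 (3.02 and 1.13) are the rest of this role.

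ISG15 is a ubiquitin-like tag that interferon signalling attaches to proteins. Isg15 stood at 0.765, 9.99, 1.52 and 6.34 normalized counts, with an ST-HSC 4OHT ratio of 13.1 (7.08 to 26.8) beside an MPP2 ratio of 4.18 (2.56 to 7.13). Usp18, the protease that takes ISG15 off again and also dampens the interferon receptor, stood at 0.904, 16.5, 2.96 and 10.6. Both genes had their lowest value in ST-HSC with ethanol and their highest in ST-HSC with 4OHT. Herc6, the main ISG15 ligase of the mouse, differed from them: it stood at 10.5, 16.7, 10.3 and 10.7, so that 3 libraries were alike and ST-HSC with 4OHT stood above (ratio 1.59, 1.29 to 1.96).

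Among enzymes that act on nucleotides, Rsad2, which encodes viperin and makes a chain-ending nucleotide, stood at 1.11, 11.9, 4.11 and 17. It was the tested gene of this role with the largest difference in both cell types, and its highest level was in MPP2 rather than ST-HSC colonies with 4OHT. Its neighbour Cmpk2, a mitochondrial nucleotide kinase whose gene lies within 37092 bases with it on chromosome 12, had smaller 4OHT ratios of 1.99 (1.70 to 2.33) and 1.80 (1.55 to 2.08). Samhd1, which breaks down deoxynucleotides and so starves retroviruses, was at 116, 143, 134 and 174, higher with 4OHT by 1.23-fold (1.15 to 1.31) in ST-HSC and 1.29-fold (1.22 to 1.38) in MPP2.

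Of the 5 genes whose proteins act on foreign RNA, 2 were at least 2-fold higher with 4OHT. Those 2 were so in both cell types (0.756% of all tested genes). Ifit3, an adaptor that strengthens RNA capture by Ifit1, had 2 reads in ST-HSC with ethanol, 96 in ST-HSC with 4OHT, 10 in MPP2 with ethanol and 49 in MPP2 with 4OHT. Its ratio was 49.6 (13.4 to 415) in ST-HSC, but it shares 61.8% of its 31-base words with Ifit3b. Ifit1, which binds RNA that lacks cap methylation, had ratios of 14.6 (7.16 to 34.6) and 4.03 (2.29 to 7.51). Ifit2 lies in the same stretch of 99316 bases on chromosome 19 and had smaller ratios, 1.33 (1.11 to 1.58) and 1.38 (1.13 to 1.68).

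Eif2ak2, the RNA-activated kinase PKR that shuts down translation, had 30.2, 30.9, 30.0 and 29.1 normalized counts, so the 4 libraries did not differ beyond counting error. Isg20, an RNA exonuclease, had 6.05, 6.18, 8.73 and 6.58. Its shared log2 difference was -0.18 (limma standard error 0.16, adjusted p = 0.675).

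Mx proteins are GTPases that trap viral nucleoproteins, and most laboratory mouse strains carry defective copies. Mx1 had 1, 59, 4 and 19 reads, with an ST-HSC ratio of 61.0 (10.5 to 2449) beside an MPP2 ratio of 5.28 (1.76 to 21.3). Mx2, annotated in GENCODE M21 as a polymorphic pseudogene, had 1, 14, 1 and 7 reads and fell below the filter. Both Mx genes were low without 4OHT and their intervals are wide.

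Guanylate-binding proteins and immunity-related GTPases attack the membranes around pathogens, and they respond strongly to interferon gamma. Of the 8 tested, 5 were at least 2-fold higher with 4OHT in ST-HSC colonies (2.1% of all tested genes) and 2 in MPP2 colonies (1.32% of all). Gbp2 stood at 1.60, 5.61, 1.59 and 4.41 normalized counts, higher in both 4OHT libraries than in either ethanol library, with ratios of 3.5 (2.18 to 5.85) and 2.78 (1.67 to 4.79). Gbp5, which promotes inflammasome assembly, had 6, 47, 5 and 12 reads. Its ratio of 8.10 (3.45 to 23.2) in ST-HSC compares with 2.67 (0.875 to 9.67) in MPP2, and the second interval includes 1.

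Gbp7 lies in the same 144031-base stretch of chromosome 3 as Gbp2, Gbp3 and Gbp5 but differed from them in direction. It stood at 13.6, 17.5, 11.3 and 8.66, higher with 4OHT in ST-HSC (1.29, 1.06 to 1.56) and lower in MPP2 (0.770, 0.597 to 0.990), and these directions stayed under each scaling tried, with the MPP2 log2 difference nearest 0, at -0.14, once a trend with GC content was removed. Its promoter holds the ISRE core shown above, as does that of Gbp2. Gbp7 shares 14.7% of its 31-base words with other genes.

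Ifi47, an immunity-related GTPase, stood at 25.7, 27.6, 20.3 and 24.4 normalized counts. Irgm1 and Igtp, which regulate the other GTPases of this family, had ST-HSC ratios of 1.96 (1.65 to 2.34) and 2.10 (1.64 to 2.71), and MPP2 ratios of 1.61 (1.31 to 1.97) and 1.72 (1.38 to 2.15). Gbp3 and Gbp9 had log2 differences of 1.68 and 1.97 in ST-HSC and 0.73 and 1.13 in MPP2. Iigp1 had 2, 6, 0 and 2 reads, too few for a direction.

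The Ifi200 proteins bind DNA in the nucleus and cytoplasm, and their 3 members lie within 284518 bases on chromosome 1. Ifi203 stood at 4.52, 17.8, 2.24 and 5.29 normalized counts, with ratios of 3.94 (2.99 to 5.26) and 2.37 (1.52 to 3.75). Ifi204, a DNA sensor, stood at 0.904, 12.1, 2.74 and 4.65. In Ifi203 the ST-HSC library was the higher of the 2 ethanol libraries, whereas in Ifi204 the MPP2 library was. Ifi205 had 2, 4, 0 and 8 reads, and its counting interval for 4OHT over ethanol in MPP2 begins at 1.90. The 3 genes share 21.6%, 34.0% and 22.1% of their 31-base words with other genes, mostly of the same family, so their separate values are uncertain.

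The interferon-induced transmembrane (IFITM) proteins stop viral envelopes from fusing with the cell, and they were by far the most abundant members per length. Over the 4 libraries Ifitm1 averaged 635 normalized counts per kb of exon, Ifitm3 averaged 474, Ifitm2 averaged 238 and Ifitm6 averaged 107. Next came Bst2 at 35.0 and Lgals3bp at 21.1. In levels per gene Ifitm1 stood at 733, 754, 645 and 648 normalized counts, a 4OHT ratio of 1.03 in ST-HSC and 1.00 in MPP2. Ifitm2 too was level, with ratios of 1.02 and 1.02, but it shares 55.5% of its words with other genes. Ifitm3, the member best known for restricting influenza, had the same ratio in both cell types within counting error, 1.38 (1.33 to 1.43) and 1.36 (1.30 to 1.43).

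Ifitm6 stood apart, at 60.4 and 45.4 normalized counts in ST-HSC colonies and 145 and 136 in MPP2 colonies. It was the one tested member at least 2-fold higher in MPP2 under both treatments, and the one tested member with a difference below 0 in ST-HSC (ratio 0.752, 0.678 to 0.835), although with the GC trend removed Isg20 and Ifitm1 also lie just below 0 there. Bst2, or tetherin, ties budding virus to the cell surface. It stood at 25.0, 54.1, 18.9 and 28.3, with ratios of 2.16 (1.90 to 2.46) and 1.5 (1.27 to 1.76).

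Parp12 and Parp14 add single ADP-ribose units to proteins, and Parp9 works in a complex with the ubiquitin ligase Dtx3l. Parp12 had the largest differences of these, at 7.86, 31, 8.44 and 18.4 normalized counts. Both ethanol libraries of Parp12 were alike, and the 4OHT ratio was 3.95 (3.20 to 4.90) in ST-HSC against 2.18 (1.73 to 2.74) in MPP2. Parp14 had closer ratios of 2.11 (1.84 to 2.42) and 1.89 (1.65 to 2.17). Dtx3l stood at 50.6, 55.9, 43.1 and 51.7, with ratios of 1.11 (0.998 to 1.23) and 1.2 (1.07 to 1.34). Parp9 had ratios of 1.54 (1.29 to 1.85) and 1.26 (1.04 to 1.51). The last 2 genes overlap on opposite strands of chromosome 16 (35938470 to 35939151), and whether counting used strand is not given.

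Among the remaining effectors, Rtp4, a receptor-transporting chaperone, stood at 0.487, 10.5, 1.66 and 9.31 normalized counts. It had the largest MPP2 log2 difference of all tested members, 2.18. Lgals3bp, a secreted glycoprotein that binds galectins, stood at 27.8, 104, 40.5 and 67.7, with a ratio of 3.74 (3.35 to 4.19) in ST-HSC against 1.67 (1.5 to 1.86) in MPP2. With 400 to 1449 reads per library it is the best counted member among those past 2-fold. Xaf1, which opposes an inhibitor of cell death, had log2 differences of 2.40 and 1.03, and Trim30a, a brake on NF-kB signalling, had 1.04 and 0.43. Ifi35 (0.52 and 0.28) and Sp100, a protein of PML nuclear bodies (0.10 and 0.26), were closer to level.

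Ifi27l2a, like Gbp7, differed in direction between the cell types. It stood at 0.556, 3.38, 4.55 and 2.33 normalized counts (8, 47, 63 and 29 reads), higher with 4OHT in ST-HSC (ratio 6.07, 2.84 to 14.9) and lower with 4OHT in MPP2 (0.512, 0.318 to 0.807). Its highest library was MPP2 with ethanol. Phf11d had 2, 39, 1 and 3 reads and Ifi44 had 0, 12, 2 and 3 reads, and the ST-HSC counting interval of Ifi44 begins at 2.87. Both fell below the filter.

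**Figure D2:**
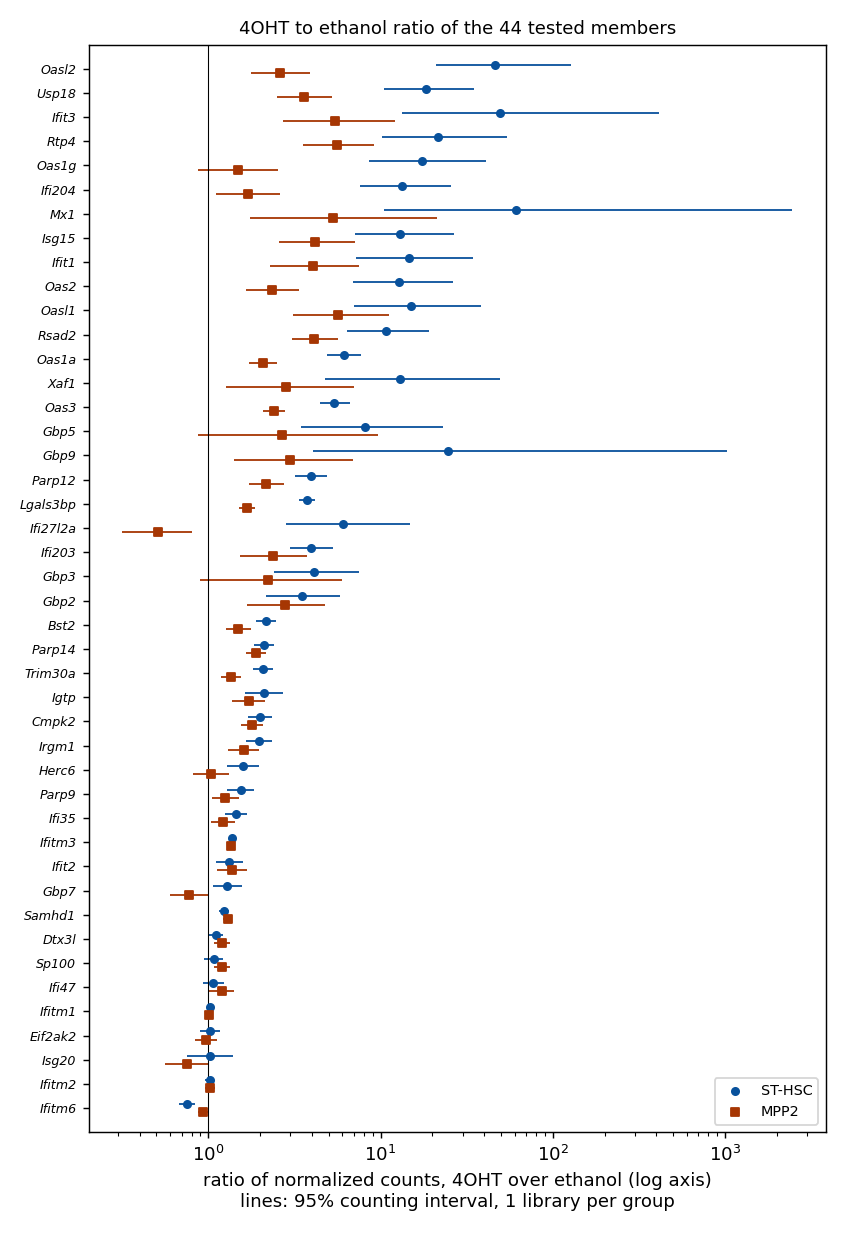
Ratio of normalized counts with 4OHT to ethanol for the 44 tested members on a log axis, with circles for ST-HSC and squares for MPP2 colonies and lines for the 95% counting interval. Oasl2, Mx1 and Ifit3 have the highest ST-HSC ratios (46.5, 61.0 and 49.6), while Ifitm1, Ifitm2 and Eif2ak2 sit at 1.

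Across the 44 tested members the log2 4OHT differences of the 2 cell types, which share no library, had a Pearson correlation of 0.77 (Spearman 0.83). Over all 49 listed members it was 0.73 (Spearman 0.77), and over all 11370 tested genes 0.43 (Spearman 0.36). The 44 include the 8 members whose mean direction the filter had fixed beforehand. Genes within a library are not independent, so these correlations are descriptions. The difference was larger in ST-HSC than in MPP2 for 37 of 44 members, against 51.7% of all tested genes, and larger by at least 1 on the log2 scale for 17 of 44, against 2.64% of all. The 7 exceptions were Samhd1, Ifit2, Ifi47, Ifitm2, Ifitm6, Dtx3l and Sp100, all within 0.5 on the log2 scale in both cell types. With 4 libraries this interaction left no residual degrees of freedom and was not tested. On counting error alone, the ratio of the ST-HSC to the MPP2 ratio had an interval above 1 for 22 of 46 members. The interval was below 1 for 1, Ifitm6 (0.804, 0.710 to 0.909). These intervals were not computed over all genes, so the counts have no share of all genes to be read against.

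**Figure D3:**
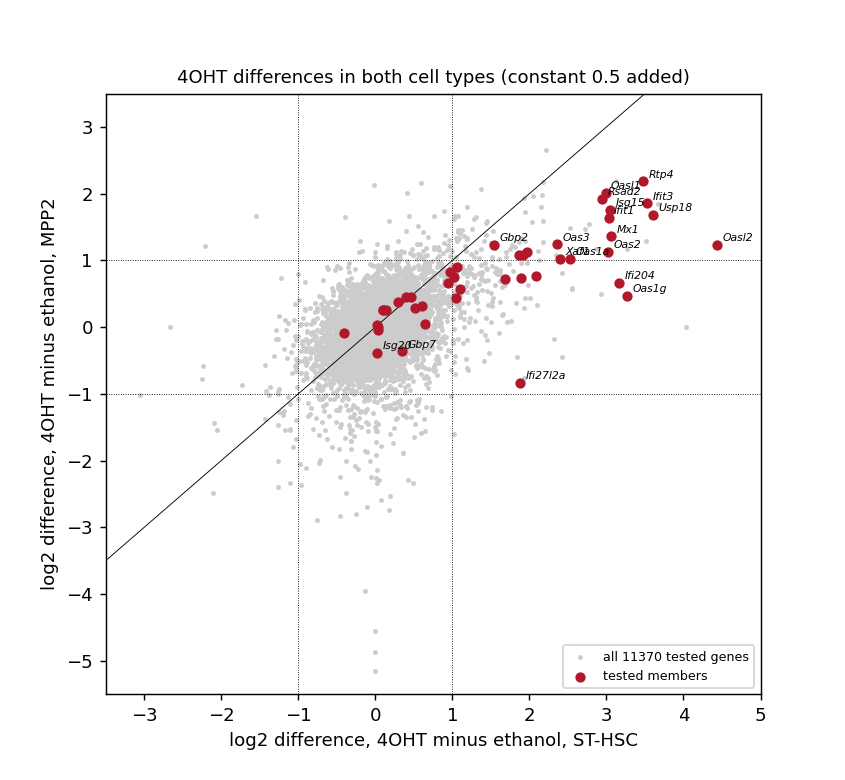
Log2 difference with 4OHT in MPP2 (vertical) against ST-HSC colonies (horizontal), grey for all 11370 tested genes and red for the 44 tested members, with dotted lines at 2-fold and a solid line of equality. The points of 37 members lie below the line of equality, and Ifi27l2a lies at 1.88 and -0.84.

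Genes that were scarce without 4OHT were more often at least 2-fold higher with it. This held among the members and over all listed genes, so it is not particular to the members. To keep the level apart from the difference, members were split by the ethanol library of the other cell type at 5 normalized counts. Of 24 listed members under 5 in MPP2 with ethanol, 22 were at least 2-fold higher with 4OHT in ST-HSC colonies, and of 25 members at or above 5, 8 were. Over all listed genes the same split gave 204 of 4746 and 104 of 9577. In the reverse split, on ST-HSC with ethanol, 15 of 24 and 3 of 25 members were at least 2-fold higher in MPP2 colonies, beside 158 of 4985 and 57 of 9338 of all listed genes. Counts as low as 1 read and the added 0.5 bear on the scarce members most.

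Without 4OHT most tested effectors stood higher in MPP2 colonies, and with 4OHT most stood higher in ST-HSC colonies. Past 2-fold in both treatments, the order was reversed in Oas1g, Oasl2 and Ifi204 only. In ethanol 11 of 44 tested members were at least 2-fold higher in MPP2 than in ST-HSC colonies (6.27% of all tested genes) and 0 were at least 2-fold lower (0.862% of all). The 11 were Oas1g, Oas2, Oas3, Oasl2, Usp18, Rsad2, Gbp9, Ifi204, Ifitm6, Ifi27l2a and Rtp4. Under 4OHT 1 of 44 was at least 2-fold higher in MPP2 (5.39% of all tested genes), Ifitm6. There 7 were at least 2-fold lower (1.71% of all): Oas1g, Oasl2, Mx1, Gbp3, Gbp5, Ifi203 and Ifi204. The MPP2 value was the higher one for 29 of 44 members in ethanol (46.0% of all tested genes) and for 10 of 44 under 4OHT (48.2% of all tested genes). The cell-type comparison in ethanol and the one under 4OHT share libraries with those between treatments, so they are the same 4 values seen from another side. The ST-HSC library with ethanol was the lowest of the 4 for 28 of the 44 (19.3% of all tested genes), and ST-HSC with 4OHT was the highest for 33 (28.0% of all tested genes).

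**Figure D4:**
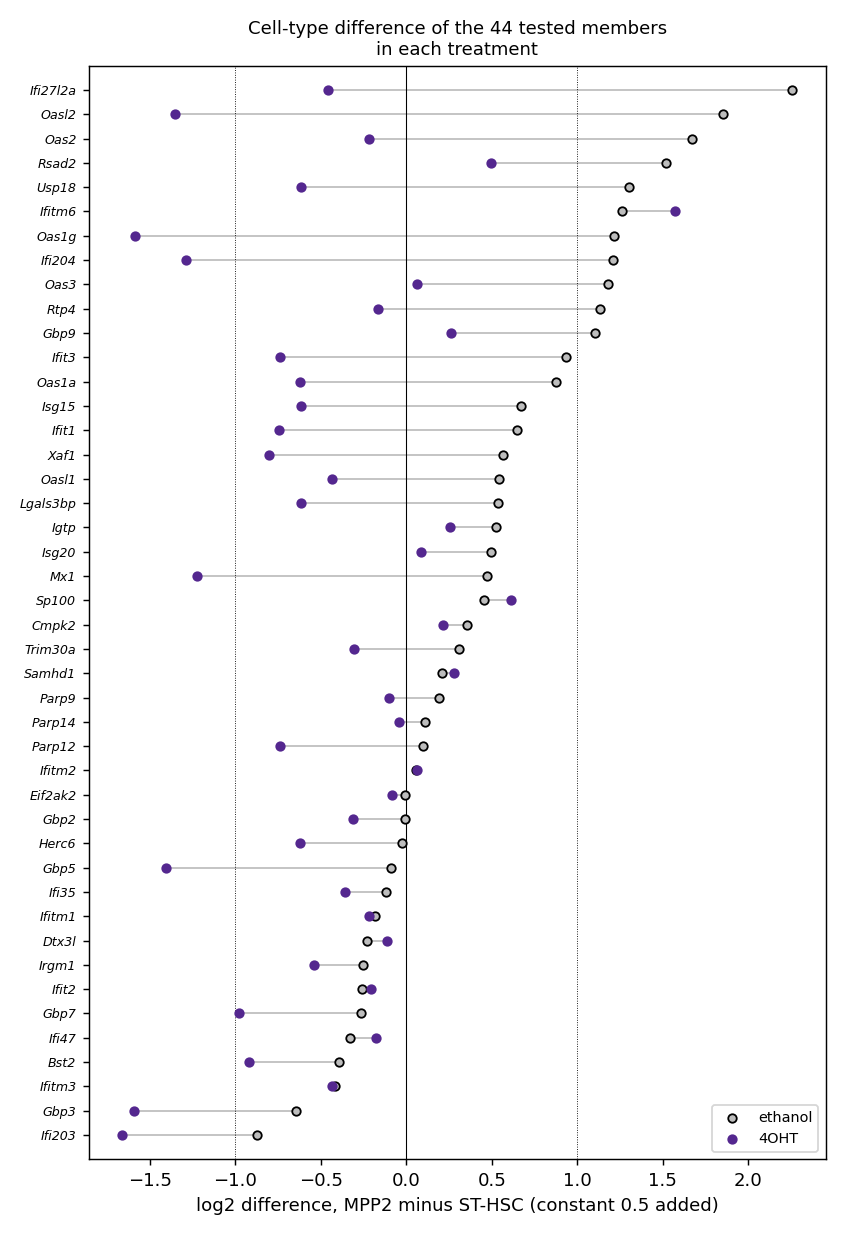
Log2 difference of MPP2 minus ST-HSC colonies for the 44 tested members, open grey points for ethanol and purple for 4OHT, joined by a line for each gene. Oasl2 moves from 1.85 in ethanol to -1.35 under 4OHT, whereas Ifitm6 stays above 1 in both.

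In the pathway upstream, of 21 interferon genes looked up 2 were in the table. Ifnz, of the limitin family, had 4, 0, 2 and 6 reads and Ifnk had 3, 1, 1 and 2, and the others were not analysed here. Of the 6 receptor genes 0 passed limma's adjusted threshold or edgeR's. At an unadjusted limma p of 0.05, 1 was higher (7.02% of all tested genes). The receptor gene with the highest count per gene was Ifngr1, for interferon gamma, at 115, 103, 99.7 and 98.4 normalized counts. Ifnlr1, for interferon lambda, stood at 1.39, 2.01, 5.34 and 10.3, and Ifngr2 at 61.3, 74.3, 68.5 and 89.1, and these had the largest mean differences in this list.

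Of 14 signalling genes limma called 0. At an unadjusted limma p of 0.05, 7 were higher (7.02% of all tested genes) and 1 was lower. A share of all genes was not computed for the lower count. EdgeR called 4 higher (2.47% of all) and 0 lower (1.86% of all). Irf7, which amplifies interferon production, stood at 3.69, 31.3, 13.9 and 19.8, and Irf9, part of the complex that binds the ISRE, at 7.79, 19.8, 14.3 and 24.9. Both had their lowest value in ST-HSC with ethanol, as most effectors did. The kinase gene Jak1 stood at 242, 225, 315 and 302. Of 13 tested sensors and adaptors limma called 0. At an unadjusted limma p of 0.05, 6 were higher (7.02% of all tested genes). EdgeR called 2 higher (2.47% of all) and 0 lower (1.86% of all). Dhx58, an RNA sensor of the RIG-I family, stood at 6.68, 18.1, 7.14 and 14.0, and Zbp1, a sensor of left-handed nucleic acids, at 3.69, 14.3, 8.30 and 10.8. Myd88, the adaptor of Toll-like receptors, stood at 111, 142, 98.1 and 136.

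Markers of blood cell types differed with treatment as well. Monocyte and macrophage markers (14 genes) had a sum of 2514 normalized counts in ST-HSC colonies with ethanol against 3951 with 4OHT. In MPP2 colonies their sum was 3555 against 5494. Of 13 tested, 4 were at least 2-fold higher in ST-HSC (2.1% of all tested genes) and 5 in MPP2 (1.32% of all). Their median log2 differences were 0.79 and 0.62. The sums came mostly from Lyz2, Ly6c2 and Gpnmb, and not every marker was higher. In MPP2 colonies without and with 4OHT, Ccr2 had 292 and 153 reads and Cd14 had 1362 and 1177. For mast cells and basophils the sums without and with 4OHT were 165 and 88.5 in ST-HSC colonies and 1802 and 586 in MPP2 colonies. Erythroid markers summed to 141 in MPP2 with ethanol, 10.2 in MPP2 with 4OHT and about 1 in both ST-HSC libraries, where Hba-a2, Hbb-b1 and Slc4a1 were at 0 reads. The 4 listed plasmacytoid dendritic markers summed to between 66.1 and 72.9, nearly all from Runx2 and Tcf4, which other blood cells also express, while Ccr9 had 10 reads at most and Pacsin1 had 2. Neutrophil markers had sums of 25317 and 17769 in ST-HSC colonies without and with 4OHT, and of 41807 and 40588 in MPP2 colonies. Of 7 tested stem and progenitor markers, 3 were at least 2-fold higher with 4OHT in ST-HSC colonies (2.1% of all tested genes). In MPP2 colonies 0 were (1.32% of all). The list medians were log2 0.28 in ST-HSC and -0.23 in MPP2 colonies. In ST-HSC colonies without and with 4OHT, Cd34 had 172 and 376 reads, Procr 68 and 143, and Meis1 21 and 55. Hlf went the other way there, with 135 and 84 reads, and Cd34 had 342 and 261 reads in MPP2 colonies. The part of these shifts in the effector differences was not tested. In bulk cultures a change in the share of a cell type and a change of RNA per cell cannot be told apart.

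**Figure D5:**
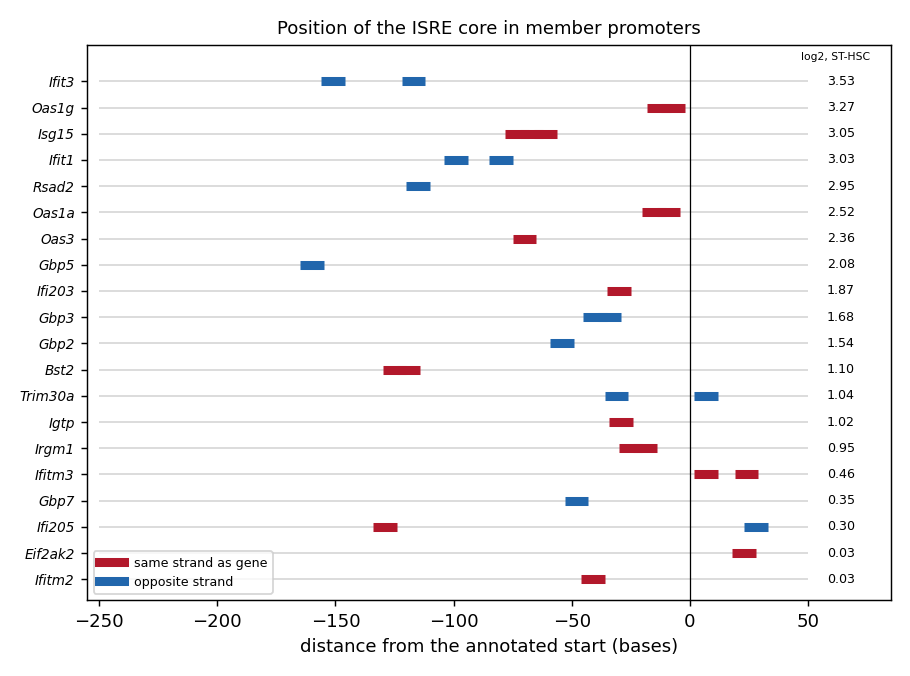
Position of the ISRE core in the promoters of the 20 listed members that hold it, in bases from the annotated start (0), ordered by the ST-HSC log2 4OHT difference printed at the right. Red marks the strand of the gene and blue the opposite strand; Trim30a holds it in 2 promoters, drawn on 1 line.

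Set beside the promoters, the core was found both in members with large differences and in level ones. Of the 20 listed members with it, 14 were at least 2-fold higher with 4OHT in ST-HSC and 9 in MPP2 colonies. Of the 18 with a promoter but without the core, 7 and 4 were. Ifitm2 (log2 0.03 in ST-HSC) and Eif2ak2 (0.03) hold the core, and Oasl2 (4.44) and Xaf1 (2.40) do not hold it within these 300 bases. Of the 12 members with the GAS letters, 4 were at least 2-fold higher in ST-HSC and 1 in MPP2 colonies. Of the 26 without them, 17 and 12 were. These shares were not computed over all genes with or without each motif. A link between motif and difference was not tested.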

How the data were processed

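The deposited table gives normalized counts, a signal scaled by the authors, for 1 library per group. The submitters' processing notes name RSEM, Bowtie2, edgeR, Trimmomatic 0.36 and mm10, with no order or settings. Per the labels, strand-specific rRNA-depleted libraries were made from 200 ng of RNA. The values came out as whole multiples of a step in each column (100% of 57292 values within 1e-06 reads), so whole reads were recovered, and the scaling matches TMM factors. No listed gene has under 4 reads in all.

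The members, gene lists and tests were chosen with earlier results of these data known. Tested genes had a mean of at least 1 normalized count, log2 values had 0.5 added, which understates differences of low genes, and limma ran without trend. All listed members are named, and values in every library are given in full for the member of each role with the highest difference in each cell type, the lowest difference and the highest level (29 members), and for the pathway gene with the highest level and the 2 with the largest differences in each list. Counting intervals (95%) and the limit of 3 reads for a count of 0 cover counting error only. Coordinates and exon lengths are from GENCODE M21 (GRCm38, the mm10 assembly), and shared words are 31-base words of a gene's transcripts found in another gene. The fits were tested on simulated reads. Alternatives were other added constants, filters, scalings and tools. Versions were limma 3.58.1, DESeq2 1.42.0 and edgeR 4.0.16 in R 4.3.3, and scipy 1.17.1 and pandas 2.3.3 in Python 3.11.15.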

Additional observations from a re-analysis of the deposited data

Results flagged for a closer look

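In 2 members the 4OHT difference pointed in opposite directions in the 2 cell types, beyond counting error in each. For Ifi27l2a the ST-HSC log2 difference exceeded that in MPP2 by 2.71, and for Gbp7 by 0.71. The difference between cell types was not tested, since each direction rests on 1 pair of libraries.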

How the results depend on the processing

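The count of tested members called in the shared 4OHT effect depended most on the setting. It was 0 with limma as reported, 8 with an added constant of 1 (73 of all 11370 genes were called higher), 14 of 32 with a filter at a mean of 5 (162 of 9520), 27 with limma's trend, 28 with edgeR and 15 with DESeq2, where 4 members had no adjusted p. The filter at 5 removes low genes. It gave 15 of 32 members at least 2-fold higher in ST-HSC and 9 in MPP2, with medians of 0.96 and 0.51. It also gave 3 lower in MPP2 than ST-HSC under 4OHT, with cell-type medians of 0.20 in ethanol and -0.21 under 4OHT. Leaving out members that share at least 10% of their words (18 of the 49 listed) was chosen after the data were seen. It gave 16 at least 2-fold higher in ST-HSC, 10 in MPP2 and 7 higher in MPP2 in ethanol. It gave 4 lower under 4OHT and 22 with a larger 4OHT difference in ST-HSC. Medians were 1.32 in ST-HSC, 0.28 in ethanol and -0.26 under 4OHT. These counts come from fewer than 44 members, so a lower count is not by itself a lower share. Shares of all genes at 2-fold were not computed for this setting or the filter at 5. The ST-HSC median was 1.35 with a constant of 1, 1.82 with 0.1 and 1.45 with no filter. The count at least 2-fold higher with 4OHT in MPP2, 17 as reported, was 12 with a constant of 1. It was 19 with 0.1 and 15 with scaling by total reads, and shares of all genes were not computed for these. With a constant of 1 the MPP2 median was 0.62 and 7 members were at least 2-fold higher in MPP2 in ethanol. By the ratio with at least 10 reads, 2 were lower there. Near 0, Eif2ak2 changed sign to 0.0012 with DESeq2 size factors, 0.13 with the GC trend removed, 0.00029 with edgeR and 0.0061 with DESeq2, Gbp7 to 0.0021, 0.16, 0.025 and 0.013, and Ifitm1 to -0.049 with the GC trend removed. Replicates could not be paired because each group has 1 library and the labels give no replicate numbers to pair on. The limma fit does compare the treatments within each cell type, and leaving out a library leaves no test. Depth limits the members with under 10 reads in a library, 17 of 49.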
